A study of Homo sapiens with 2 samples.

Results

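The genes examined here are the DEAD and DEAH box helicase genes, taken as the protein-coding RefSeq genes whose symbol begins with DDX or DHX followed by a digit, with DDX5 and DHX9 left out. The rule gave 52 genes, 37 DDX and 15 DHX, among 20037 protein-coding genes placed on chromosomes 1 to 22, X and Y of GRCh38. It used symbols and gene ends only and no measured value, although the genes were chosen with earlier results of these data known. For each gene, the ChIP-seq peaks of Flag-tagged ETV4 lying within 1 kb of either outer end were collected, measured from the edge of the peak.

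The peaks came from 1 anti-Flag immunoprecipitate, called against 1 input library. Both libraries were from A549, an established human lung adenocarcinoma line, carrying an shRNA against the ETS factor ETV4 (A549-shETV4) and transfected with a plasmid for Flag-ETV4. The protein that was precipitated was therefore a tagged, re-expressed one, and no untransfected or tag-free sample was analysed here. The antibody is Sigma F1804 in the sample labels and a CST antibody in the ChIP methods of the study. The input entered only through the control level behind each enrichment value, and the read totals of the libraries were not used here. There were no replicates, so no spread between samples and no test between conditions can be given. Wilson intervals on shares of genes and Poisson intervals on fragments cover counting error only, and genes are not replicates of a condition.

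DEAD box (DDX) and DEAH box (DHX) proteins are ATP-driven enzymes named after the amino acids of a conserved ATPase motif. DEAD box proteins mostly pry apart short RNA duplexes locally or clamp RNA, whereas DEAH box proteins tend to move along one strand. The members were grouped by symbol, and the motif of each protein was not checked here. Together they drive steps of splicing, ribosome assembly, mRNA export, translation, RNA decay and RNA sensing, and most are needed in every dividing cell, with a few restricted to the germ line. ETV4 belongs to the ETS family, whose members bind a GGAA core, most often within CCGGAAG in promoters.

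To show what the peaks cover, promoter windows of 250 bases before to 50 bases after an annotated start site were taken from RefSeq (build GRCh38.p14). A total of 47 of the 52 genes matched, with 62 windows, and DDX18, DDX49, DDX52, DHX33 and DHX58 had no entry. The windows below are the 3 DDX windows and the 3 DHX windows that contained a peak summit and had the highest fold enrichment in their family. They read 5′ to 3′ on the strand of the gene, so base 251 is the start site, and capitals mark CCGGAAG or its reverse complement CTTCCGG.
DDX59, chr1:200669687-200669986, minus strand: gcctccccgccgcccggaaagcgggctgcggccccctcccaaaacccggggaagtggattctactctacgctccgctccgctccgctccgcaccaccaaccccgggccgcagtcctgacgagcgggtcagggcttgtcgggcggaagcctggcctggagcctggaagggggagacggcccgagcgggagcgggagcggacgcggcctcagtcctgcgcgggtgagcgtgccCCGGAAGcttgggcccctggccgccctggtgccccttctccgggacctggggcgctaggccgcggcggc
DDX21, chr10:68955920-68956219, plus strand: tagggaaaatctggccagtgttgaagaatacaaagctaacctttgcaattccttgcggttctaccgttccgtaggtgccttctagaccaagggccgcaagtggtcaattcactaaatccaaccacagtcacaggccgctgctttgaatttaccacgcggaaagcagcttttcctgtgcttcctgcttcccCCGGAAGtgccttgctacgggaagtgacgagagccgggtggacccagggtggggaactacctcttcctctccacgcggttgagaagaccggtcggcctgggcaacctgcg
DDX3X, chrX:41333058-41333357, plus strand: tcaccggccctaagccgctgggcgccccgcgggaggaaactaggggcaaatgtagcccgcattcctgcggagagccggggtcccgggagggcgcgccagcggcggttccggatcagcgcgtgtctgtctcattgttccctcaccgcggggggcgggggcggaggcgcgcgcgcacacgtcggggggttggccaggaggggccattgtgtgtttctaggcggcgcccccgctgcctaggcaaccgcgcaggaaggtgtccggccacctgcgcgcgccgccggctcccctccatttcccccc
DHX30, chr3:47802888-47803187, plus strand: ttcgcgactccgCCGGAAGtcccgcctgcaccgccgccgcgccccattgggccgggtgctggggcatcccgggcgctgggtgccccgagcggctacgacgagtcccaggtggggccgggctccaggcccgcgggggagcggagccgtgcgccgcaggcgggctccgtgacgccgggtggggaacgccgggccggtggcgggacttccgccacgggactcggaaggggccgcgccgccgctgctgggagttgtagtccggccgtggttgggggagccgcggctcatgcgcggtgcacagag
DHX8, chr17:43483725-43484024, plus strand: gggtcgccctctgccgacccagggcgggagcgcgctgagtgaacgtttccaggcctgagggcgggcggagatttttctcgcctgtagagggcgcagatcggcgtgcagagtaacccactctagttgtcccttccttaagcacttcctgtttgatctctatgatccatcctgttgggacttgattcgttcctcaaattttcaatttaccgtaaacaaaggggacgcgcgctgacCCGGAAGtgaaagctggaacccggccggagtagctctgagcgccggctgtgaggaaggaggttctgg
DHX40, chr17:59565360-59565659, plus strand: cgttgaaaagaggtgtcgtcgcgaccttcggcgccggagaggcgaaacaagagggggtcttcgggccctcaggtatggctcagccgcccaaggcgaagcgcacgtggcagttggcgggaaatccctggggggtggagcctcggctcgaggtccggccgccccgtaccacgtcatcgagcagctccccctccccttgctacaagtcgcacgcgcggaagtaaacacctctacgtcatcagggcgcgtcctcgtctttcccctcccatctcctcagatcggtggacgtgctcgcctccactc

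In DDX59 the match began at base 232 and the summit stood at base 238, in the window of the inner of the annotated start sites. In DDX21 the match began at base 191 and the summit stood at base 208. In DHX8 the match began at base 234, and the summit, at base 168, was 69 bp from its centre. In DHX30 the match began at base 13 and the summit lay 162 bp from its centre, at base 178. The windows of DDX3X and DHX40 held summits at base 122 and base 280 and no match. A further pair was chosen after its values were seen. It shows the window of the member with the strongest peak within 1 kb of an end, and a window with a match. The gene of the latter had no peak within 1 kb of an end.
DDX27, chr20:49219166-49219465, plus strand: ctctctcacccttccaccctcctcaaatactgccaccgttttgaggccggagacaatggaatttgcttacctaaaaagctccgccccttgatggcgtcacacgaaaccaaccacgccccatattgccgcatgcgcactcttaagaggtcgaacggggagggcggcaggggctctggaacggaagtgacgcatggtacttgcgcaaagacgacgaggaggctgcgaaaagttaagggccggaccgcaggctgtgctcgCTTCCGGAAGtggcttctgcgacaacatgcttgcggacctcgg
DHX37, chr12:124989082-124989381, minus strand: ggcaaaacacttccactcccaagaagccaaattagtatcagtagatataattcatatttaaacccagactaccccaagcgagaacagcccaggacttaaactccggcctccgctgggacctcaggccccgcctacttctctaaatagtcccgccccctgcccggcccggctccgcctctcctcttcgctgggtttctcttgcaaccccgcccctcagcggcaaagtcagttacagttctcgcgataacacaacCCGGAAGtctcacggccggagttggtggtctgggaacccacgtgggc

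In DDX27 matches on both strands began at bases 258 and 261 and overlapped each other, and the summit stood 99 bp downstream of the start site, beyond the window. In DHX37 the match began at base 254, just after the start site, and no peak was called there. The nearest peak, of fold 5.07, was 4749 bp from an outer end of DHX37.

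Most of the helicase genes had ETV4 at an end. A peak lay within 1 kb of an end in 39 of the 52 genes (75%, with a 95% Wilson interval of 61.8% to 84.8%), against 62.1% of all protein-coding genes. The fold enrichment is the pileup of fragments at the summit over the level expected there from the control, each with 1 added. The genes ranged from a fold enrichment of 80.4 at DDX27, whose product processes ribosomal RNA, to 3.44 at DDX19A, an mRNA export factor. Over the genes with a peak, the median fold of the strongest peak was 17.3 (quartiles 9.92 and 27.9), and it was 17.6 (9.33 and 30.6) over the 12444 protein-coding genes with a peak. The interval of the share included the background of 62.1%, and the folds were close to those of other genes. A strongest peak of fold over 10 was present at 29 genes (55.8%), against 45.2% of all protein-coding genes.

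DDX and DHX genes were close to each other by this measure. A peak was present at 28 of 37 DDX genes (75.7%, 59.9% to 86.6%) and at 11 of 15 DHX genes (73.3%, 48.0% to 89.1%). The difference was 2.34 percentage points, with a Newcombe 95% confidence interval from -19.98 to 29.9, so with 15 DHX genes differences within these bounds were not resolved. The median fold was 19.97 (quartiles 10.99 and 29.3) at DDX genes and 14.0 (8.44 and 21.3) at DHX genes. These ranges overlapped almost wholly, with extremes of 3.44 and 80.4 for DDX and 4.46 and 52.1 for DHX. Median pileups, the fragments stacked at the summit, were 71 and 50, over median control levels of 2.34 and 2.55. A fold over 10 was reached by 21 DDX genes (56.8%) and 8 DHX genes (53.3%), a difference of 3.42 points with an interval from -23.6 to 30.8.

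**Figure D1:**
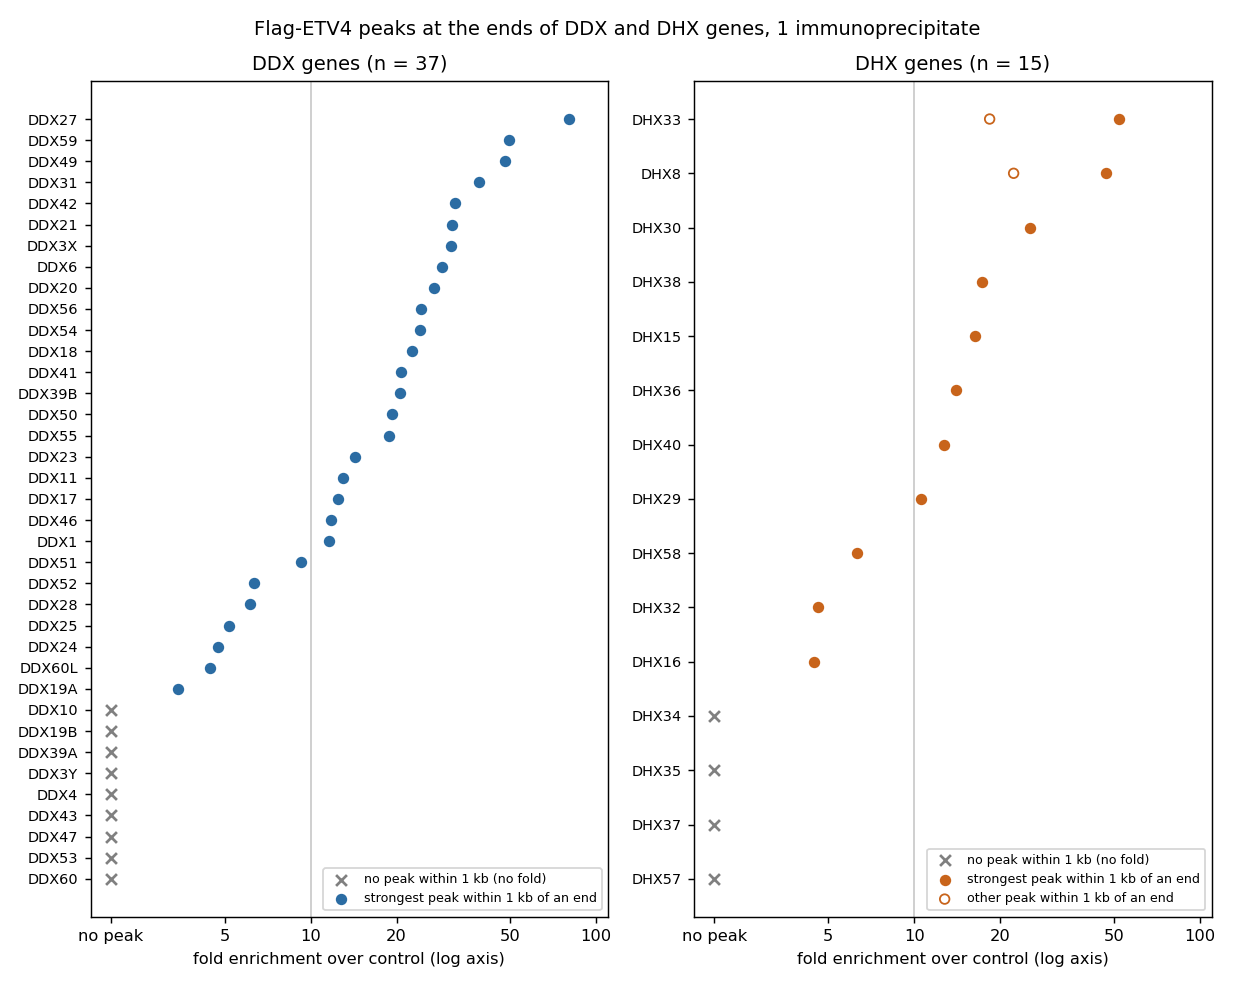
Fold enrichment (log axis) of the peaks within 1 kb of an end of each DDX gene (left) and DHX gene (right) in the single immunoprecipitate. Filled points are the strongest peak of a gene, open points a second peak, crosses genes without a peak, and the grey line marks a fold of 10. The 28 DDX points span 3.44 to 80.4 and the 11 filled DHX points 4.46 to 52.1, with 9 DDX and 4 DHX genes without a peak.

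**Figure D2:**
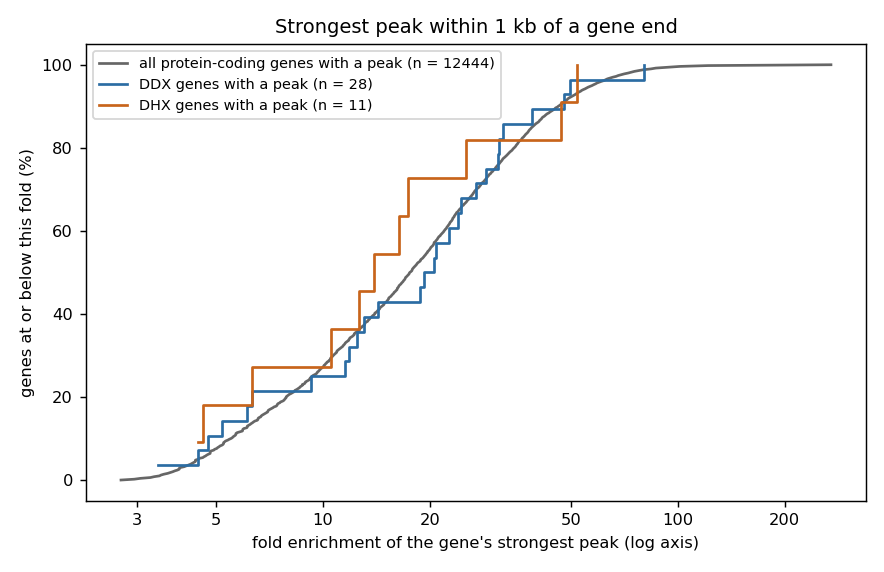
Share of genes (%) whose strongest peak is at or below a given fold enrichment (log axis), for 28 DDX genes, 11 DHX genes and all 12444 protein-coding genes with a peak. The DDX curve follows that of all genes, with medians of 19.97 and 17.6, and the DHX curve, resting on 11 genes, has its median at 14.0.

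The 5 highest DDX folds belonged to DDX27, DDX59, DDX49, DDX31 and DDX42, of which 3 are in the list of ribosome biogenesis and 1 in that of splicing. At DDX27 on chromosome 20, the peak from 49219196 to 49219896 was only 701 bp wide, with its summit 319 bases from the left edge and a −log10 q (the significance after correction over the genome) of 401. At this summit 244 fragments (214 to 277, the exact 95% interval of a Poisson count) stood over a control level of 2.05, and 98.8% of the protein-coding genes with a peak had a strongest fold at or below it. STAU1, an RNA-binding protein gene, has an end 220 bp from the same summit. DDX59, linked to ciliary signalling, had a fold of 49.5 with 150 fragments (127 to 176) in a peak of 1239 bp on chromosome 1 from 200669377 to 200670615, with the summit at offset 372. DDX49, a factor of ribosomal RNA processing, had a fold of 47.8 with 192 fragments (166 to 221), in a peak on chromosome 19 from 18919078 to 18920194. This summit, at offset 288, was 21 bp from an end of COPE and 349 bp from that of DDX49. DDX31, a nucleolar helicase, had a fold of 38.8 with 101 fragments (82.3 to 123), from 132669337 to 132671327 on chromosome 9 with the summit at offset 232. DDX42, a partner of the splicing factor SF3B, had one of 32.2 with 118 fragments (97.7 to 141), from 63773043 to 63775304 on chromosome 17 with the summit at offset 1556. The pileup interval of DDX27 overlapped that of DDX49 but neither that of DDX59 nor those of DDX31 and DDX42. Such intervals cover the fragments alone and not the control level, 3.04 at DDX49 against 2.05 at DDX27, so they do not judge the order of the folds.

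The next DDX genes lay close together. DDX21, a nucleolar helicase of ribosomal RNA synthesis and processing, had a fold of 31.3 and 136 fragments (114 to 161), from 68955774 to 68957322 on chromosome 10 with the summit at offset 353. DDX3X, which acts in translation initiation, had a nearly equal fold of 31.1 from 70 fragments (54.6 to 88.4), over a control level of 1.28 against 3.38 at DDX21. Its peak, from 41332617 to 41335529 on chromosome X, was the widest of the members' strongest peaks at 2913 bp, and its summit stood at offset 562. DDX6, which acts with the mRNA decapping machinery, had a fold of 28.8 and 86 fragments (68.8 to 106), from 118790648 to 118791965 on chromosome 11 with the summit at offset 1032. DDX20, a subunit of the SMN complex, had one of 27.1 and 98 fragments (79.6 to 119), from 111754995 to 111756382 on chromosome 1 with the summit at offset 594. The summit at DDX20 was nearer to an end of INKA2, at 208 bp, than to that of DDX20, at 312 bp. Of the genes that followed, DDX56, DDX54, DDX18 and DDX55 belong to ribosome biogenesis, with folds of 24.4, 24.1, 22.7 and 18.8. The splicing genes DDX41 and DDX39B had folds of 20.8 and 20.6, and DDX50 had one of 19.3. Below them, DDX23, DDX11, DDX17, DDX46 and DDX1 had folds of 14.3, 13.0, 12.5, 11.8 and 11.6. The latter 5 had 32 to 47 fragments, and their intervals overlapped one another.

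The DHX genes with the highest folds, DHX33 and DHX8, had their strongest summit at an end of another gene or inside one. For DHX33, a nucleolar helicase, the peak of fold 52.1 on chromosome 17 from 5438182 to 5439949 reached within 1 kb of the gene by its edge alone, with 118 fragments (97.7 to 141). Its summit, at offset 964, was 1771 bp from DHX33 and 9 bp from an end of C1QBP. A second peak at the other end of DHX33, from 5467554 to 5469202, had a fold of 18.4, 48 fragments (35.4 to 63.6) and a summit at offset 1220, 208 bp inside the gene. For DHX8, which releases spliced mRNA from the spliceosome, the peak of fold 46.8 from 43545271 to 43546530 lay at the 3′ end, and its summit, at offset 57, was 529 bp beyond DHX8 and inside ETV4, the gene re-expressed in these cells. It had 472 fragments (430 to 517) and a control level of 9.11, the highest among the members' strongest peaks. At its own start site DHX8 had a peak of fold 22.3 with 50 fragments (37.1 to 65.9) over a control level of 1.29, from 43483685 to 43484361 with the summit at offset 207. The outer bounds of DHX8 also take in 2 intervals within ETV4 with control levels of 412 and 313, far above the 1.67 that was the median of all peaks. The part of the transfected ETV4 sequence in these 3 peaks was not tested. With DHX8 and DHX33 taken at their other peak, the DHX median remained 14.0 and the highest DHX fold became 25.3.

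The remaining DHX genes with a fold over 10 had a single peak each. DHX30, of mitochondrial ribosome assembly, had a fold of 25.3 and 57 fragments (43.2 to 73.9), from 47802295 to 47803760 on chromosome 3 with the summit at offset 770. The splicing helicases DHX38 and DHX15 had folds of 17.3 and 16.4, with 69 fragments (53.7 to 87.3) and 50 fragments (37.1 to 65.9). DHX36, which unwinds G-quadruplexes, had a fold of 14.0, DHX40 one of 12.7 and DHX29, a factor of ribosome scanning, one of 10.6. The pileup intervals of these 6 genes overlapped those of their neighbours in this order. DHX8 and DHX33 were also the only members with peaks at both ends, against 6.71% of all protein-coding genes.

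At the lower end, 10 genes had a strongest peak of fold under 10, 7 DDX and 3 DHX, with pileups of 10 to 28 fragments. The lowest was DDX19A with 10 fragments (4.80 to 18.4) over a control level of 2.2, in a peak of 236 bp on chromosome 16 from 70346868 to 70347103, with its summit at offset 90 and a −log10 q of 2.69. DHX16, a splicing helicase, had a fold of 4.46 with 17 fragments (9.90 to 27.2), from 30672801 to 30673116 on chromosome 6 with the summit at offset 262. DDX60L, related to an antiviral factor, had one of 4.46 with 11 fragments (5.49 to 19.7), from 168480151 to 168480422 on chromosome 4 with the summit at offset 130. These 3 peaks had pileup intervals that overlapped one another. DHX32 had a fold of 4.59 with 16 fragments (9.15 to 26.0), from 125895257 to 125897032 on chromosome 10 with the summit at offset 707. DDX24, of ribosome biogenesis, had one of 4.74, also with 16 fragments, from 94080813 to 94081551 on chromosome 14 with the summit at offset 351. DDX25, a testis helicase, had a fold of 5.20 with 20 fragments (12.2 to 30.9), from 125902918 to 125903253 on chromosome 11. Its summit, at offset 186, was 102 bp from an end of PUS3 and 224 bp upstream of DDX25. DDX28, of mitochondrial ribosome assembly, had a fold of 6.13, DHX58, an RNA sensor, and DDX52 had 6.33 each, and DDX51 had 9.28. The pileup intervals of the 9 genes below DDX51 overlapped one another.

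**Figure D3:**
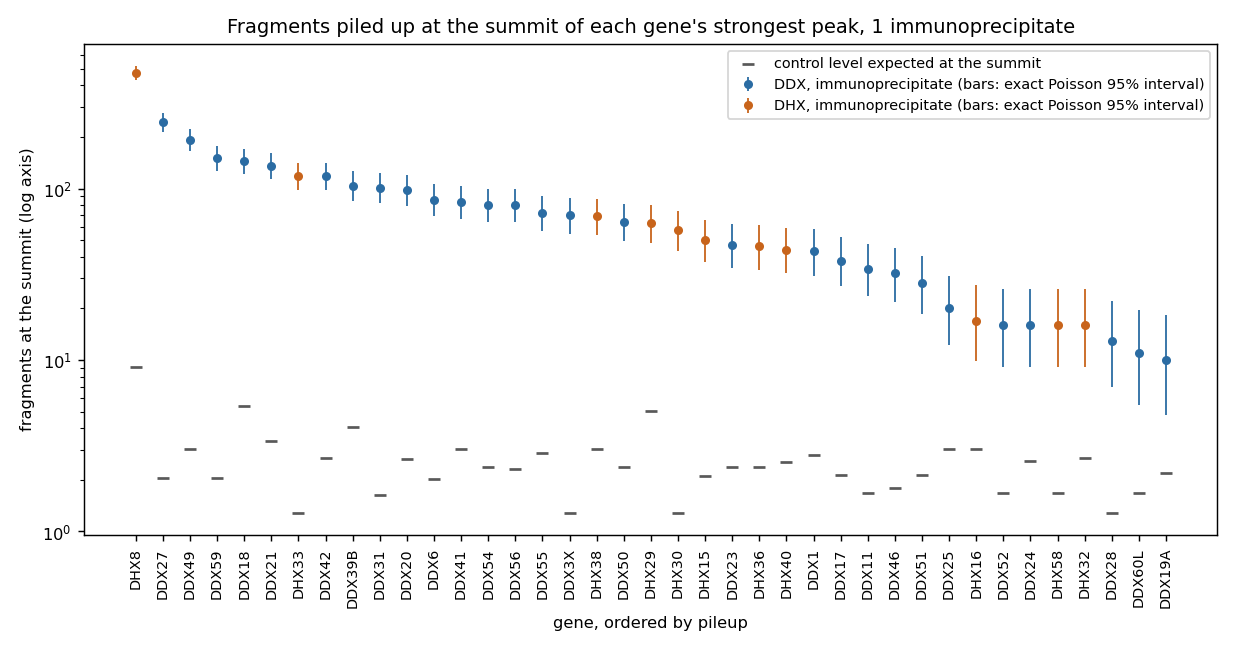
Fragments at the summit (log axis) of the strongest peak of each of the 39 genes with a peak, with exact Poisson 95% confidence intervals as bars and the control level expected there as a dash. DHX8, at 472 fragments, stands above DDX27 at 244, and the lowest pileup is 10 at DDX19A, while control levels span 1.28 to 9.11.

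The 13 genes without a peak within 1 kb of an end were DDX3Y, DDX4, DDX10, DDX19B, DDX39A, DDX43, DDX47, DDX53, DDX60, DHX34, DHX35, DHX37 and DHX57. DDX4, DDX43 and DDX53 are germ-line or cancer-testis genes. DDX10, DDX47 and DHX37 act in ribosome assembly, DHX34 in nonsense-mediated decay, DHX35 in the spliceosome and DDX39A in splicing and mRNA export, counted here under splicing. The list of peaks held 0 on chromosome Y, so DDX3Y could not be judged. The nearest peak stood 26378 bp from an end of DDX47, 24035 bp from DHX57 and 13518 bp from DDX39A. At DDX60, an antiviral helicase, the absence came from the outer gene end, which pools all transcripts. Its annotated start site lay inside that span, and a peak of fold 28.1 with 68 fragments (52.8 to 86.2), from 168318264 to 168319009 on chromosome 4, had its summit 194 bp downstream of it. Counted at annotated start sites, 34 of 47 members (72.3%, 58.2% to 83.1%) had a peak within 1 kb, against 64.4% of the 15843 protein-coding genes with a listed start site. By family these were 26 of 34 DDX genes (76.5%) and 8 of 13 DHX genes (61.5%, 35.5% to 82.3%).

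Among the members 3 pairs are neighbours on a chromosome. DDX50 and DDX21, related nucleolar helicases 9323 bp apart on chromosome 10, had peaks at each start site, that of DDX50 from 68900698 to 68901815 with its summit at offset 622. The pileup was 64 fragments (49.3 to 81.7) at DDX50 and 136 fragments (114 to 161) at DDX21, and these intervals did not overlap, over control levels of 2.36 and 3.38, while the folds were 19.3 and 31.3. DDX19B and DDX19A are adjacent mRNA export genes on chromosome 16. DDX19B had no peak within 1 kb of an end, and DDX19A had the weakest of the members' strongest peaks there, of 10 fragments. DDX60 and DDX60L, adjacent on chromosome 4, had folds of 28.1 and 4.46 at their start sites, and the pileup intervals of 52.8 to 86.2 and 5.49 to 19.7 did not overlap. Of DDX39A and DDX39B, a pair of close relatives chosen after the values were seen, DDX39A had no peak and DDX39B had a fold of 20.6 with 104 fragments (85.0 to 126). How many reads of near-identical copies were kept in mapping is not given in the sources used here.

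Summits sat near start sites. Among the 34 strongest peaks of genes with a listed start site, 16 summits (47.1%) were within 100 bp of one, 24 (70.6%) within 250 bp and 31 (91.2%) within 500 bp. Over 10144 protein-coding genes the shares were 27.7%, 52.0% and 72.2%. Peaks were collected within 1 kb of a gene end, so closeness to a start site is partly built in. In both sets the strongest peak could lie at either end of a gene. Members with a known direction had peaks at the 5′ end in 25 DDX and 9 DHX genes, and at the 3′ end in 1 DHX gene. For all protein-coding genes the ends were not separated, so the sets may differ in their mix of ends. The median distance was 129 bp for DDX genes and 221 bp for DHX genes, against 235 bp for all protein-coding genes. All 25 DDX summits were within 500 bp of a start site, and 6 of 9 DHX summits were. The exceptions were the peak of DHX8 inside ETV4, DHX32, whose listed start site was 14672 bp from the summit at its outer end, and DHX15 at 678 bp downstream. Summits were downstream of the start site in 21 of 34 genes (61.8%), close to the 58.5% of all genes. Those of DDX1, DDX50 and DDX59 were within 13 bp of it, at 6 bp upstream, 5 bp downstream and 13 bp upstream.

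**Figure D4:**
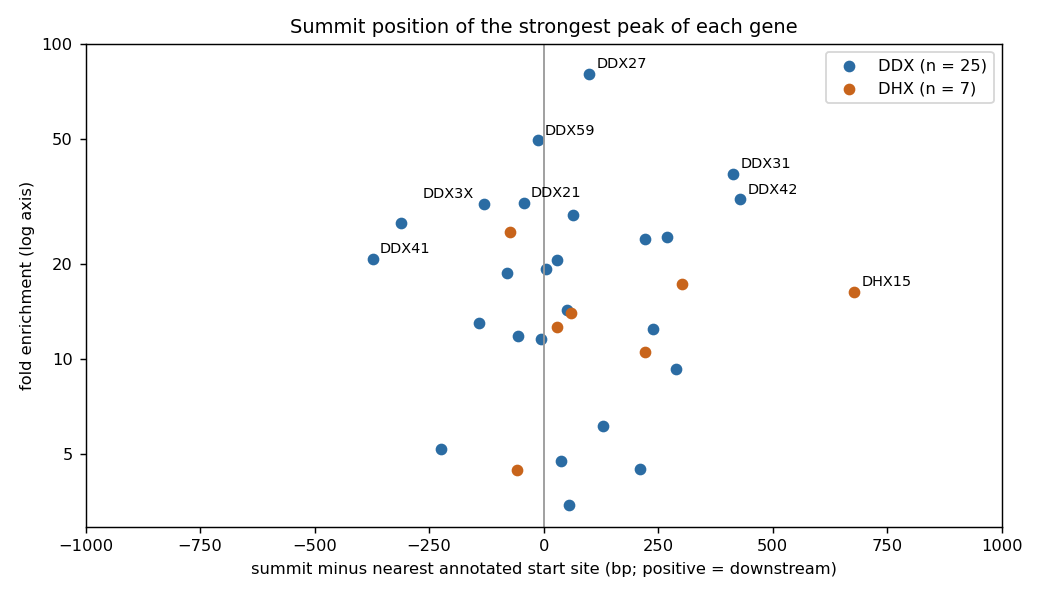
Position of the strongest summit relative to the nearest annotated start site (bp, positive downstream) against fold enrichment (log axis) for 25 DDX and 7 DHX genes. DHX8 and DHX32 lie outside the plotted range. The points gather within 500 bp of the start site, except for DHX15 at 678 bp, and peaks of fold above and below 10 lie on both sides of it.

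The motif CCGGAAG, searched on both strands in the promoter windows, was more common at these genes than at all protein-coding genes. It occurred in at least 1 window of 23 of 47 genes (48.9%, Wilson 95% confidence interval 35.3% to 62.8%), against 16.5% of the 15843 protein-coding genes with windows. Counted by window, 24 of 62 member windows (38.7%) and 12.8% of all windows held it. By family it was found at 15 of 34 DDX genes (44.1%, 28.9% to 60.5%) and at 8 of 13 DHX genes (61.5%, 35.5% to 82.3%). Among members with a peak 17 of 34 (50%) had a match, and among those without 6 of 13 (46.2%), namely DDX3Y, DDX19B, DDX47, DHX34, DHX37 and DHX57. Over all protein-coding genes the corresponding shares were 22.03% and 6.74%. DDX3Y is among these 6 although it could not be judged. The bare core GGAA was in 98.4% of member windows and 95.1% of all windows, and did not set the members apart.

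Summits inside a promoter window were set beside the matches in that window. A summit fell inside a window at 15 of the 47 genes, against 3808 of the 15843 protein-coding genes with windows. Of these 15 member genes 10 (66.7%) had a CCGGAAG match in that window, against 32.4% of all windows with a summit. The member share rests on 15 windows, and no interval was computed for it. The median distance from the centre of the nearest match to the summit was 27.5 bp, and 8 of the 10 were within 50 bp. Summit and match had to lie in the same window, which limits the distance. It was not computed over all protein-coding genes, so it is not shown to be particular to the members. The closest were DDX11, a DNA helicase of sister chromatid cohesion, at 1 bp, DDX59 at 3 bp, DDX1, of the tRNA ligase complex, at 9 bp and DDX46, a splicing helicase, at 12 bp. The farthest were DHX8 at 69 bp and DHX30 at 162 bp. A match describes letters in the window only.

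Grouped by role, the longest lists were those of ribosome biogenesis and splicing, and the shares with a peak are read against the 62.1% of all protein-coding genes. The lists were chosen with earlier results of these data known. In ribosome biogenesis 12 of 15 genes (80.0%, 54.8% to 93.0%) had a peak, with a median fold of 24.3 and members from DDX24 at 4.74 to DDX27 at 80.4. In splicing 9 of 11 (81.8%, 52.3% to 94.9%) had one, with a median of 17.3, from DHX16 at 4.46 to DHX8 at 46.8. With DHX8 and DHX33 at their other peak, the highest splicing fold was that of DDX42, at 32.2, and the medians were 17.3 for splicing and 23.4 for ribosome biogenesis. The intervals of both shares included 62.1%. In mRNA export, translation and decay 6 of 9 had a peak, with a median of 12.3, led by DDX3X and DDX6. Both mitochondrial genes had a peak, with folds of 25.3 at DHX30 and 6.13 at DDX28. In the antiviral list 2 of 3 had a peak, at folds of 6.33 and 4.46, and the third, DDX60, had its peak at an inner start site. In the germ line list only DDX25 of 4 genes had a peak, with a fold of 5.20. The members in no role list had a peak in 8 of 9 cases (88.9%, 56.5% to 98.0%), with a median fold of 12.9. The Wilson intervals of all these lists overlapped, the germ line list reaching from 4.56% to 69.9%, and no list was tested against another.

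Related helicases with other symbols, a list also chosen with earlier results known, were counted in the same way. Of 23 such genes 22 (95.7%, 79.0% to 99.2%) had a peak, against 75% of the DDX and DHX genes and 62.1% of all protein-coding genes, with a median fold of 20.98, and MOV10L1, a germ-line helicase, had none. EIF4A2, a DEAD box subunit of the cap-binding complex, had the highest fold at 106, whereas its relatives EIF4A1 and EIF4A3 had 10.3 and 5.92. MTREX, of the nuclear exosome, shares a peak with DHX29. The summit of fold 10.6 was 221 bp inside DHX29 and 516 bp from an end of MTREX.

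**Figure D5:**
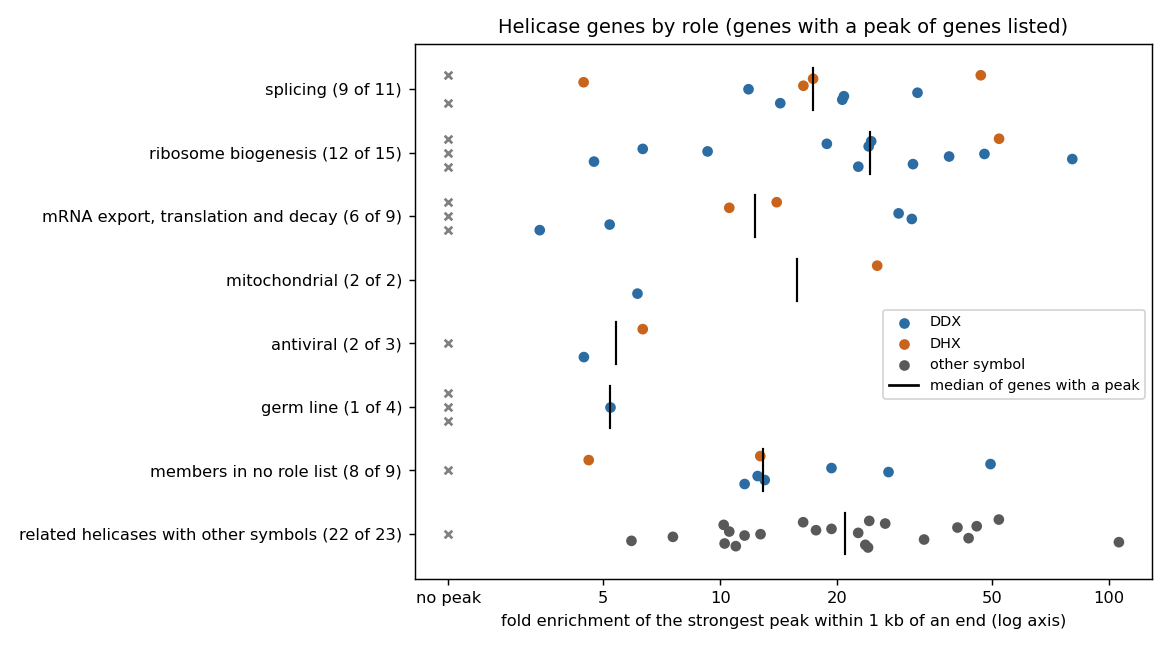
Fold enrichment (log axis) of the strongest peak of each helicase gene by role, with crosses for genes without a peak, a bar at the median, and the number of genes with a peak of those listed beside each role. DDX25 is in 2 lists. The ribosome biogenesis genes have a median of 24.3 and the germ line list a single point at 5.20.

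Away from the ends, 22 peaks had summits inside 14 member genes other than DHX8, with folds from 3.40 to 107. Their median fold was 8.54, against 9.63 over all peaks. The highest of the 22 was in DDX50, from 68928897 to 68930322 on chromosome 10, 27.9 kb downstream of the start site. Its fold of 107 exceeded that of every peak at a member's end, with 244 fragments (214 to 277) over a control level of 1.28. DDX60 held 4 such peaks, the peak at its start site included, the strongest of fold 54.3 at 32.7 kb from its start site, and DDX60L 3, of which 1 had a fold of 35.5. DDX10, which had no peak at an end, had 1 of fold 19.0 at 80.2 kb. DHX37 had 1 of fold 17.1 at 36.2 kb, and DHX35 had 3, up to a fold of 11.7. How many of all protein-coding genes held such a peak was not counted, and the member count was not adjusted for gene length. Peaks inside genes are therefore not shown to be particular to the members. Whether these positions are exons or introns was not analysed here, since the gene table gives outer bounds only.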

How the data were processed

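One peak list was used, that of the anti-Flag immunoprecipitate. The submitters' processing notes list Bowtie2 2.4.1, SAMtools, MACS2 2.2.7.1 and deepTools 3.5.0, and the builds hg38 and GRCh38. Apart from a minimum fold change, the calling parameters and the handling of duplicate reads are not given in the sources used here. For each of 54389 peaks the authors deposited the interval and its summit, a ratio of enrichment (fold) against the control, and the −log10 p-value and −log10 q-value at the summit. A display score, which the authors' software derived from q, was not used. Peaks were called on 1 library.

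Gene ends came from RefSeq (GRCh38.p14) and start sites from its promoter windows. The pileup and the control level were solved from fold and −log10 p, with the fold as pileup plus 1 over control plus 1 and p as the upper tail of a Poisson count. A whole-number pileup matched 100% of the peaks to within the larger of 0.01% and 0.001 of −log10 p, against 2.7% of 20000 simulated peaks with permuted p. The median pileup was 26 fragments. On 2000 simulated peaks the search for peaks at gene ends and a gene-by-gene search gave 0 differences.

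The member genes and role lists were chosen with earlier results of these data known. Every member is accounted for, with full values for the 12 highest and 6 lowest folds, members with peaks at both ends and neighbouring members, and windows are printed by highest fold. No test was possible with 1 library. Values were computed with scipy 1.17.1, pandas 2.3.3 and numpy 2.4.6 under Python 3.11.15, and plotted with matplotlib 3.10.9. Other windows, thresholds and gene anchors were tried as alternatives.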

Additional observations from a re-analysis of the deposited data

How the results depend on the processing

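Searching 0.5, 2 or 3 kb, using the summit alone or the 5′ end alone, a fold over 5, and leaving out peaks nearest to another gene kept the shares with a peak and the median folds within the 95% confidence intervals of their values at 1 kb. So did start sites in place of outer ends, an alternative chosen after seeing the data. At 1 kb the interval of the median fold ran from 11.8 to 27.1 for DDX genes and from 4.59 to 46.8 for DHX genes. The alternatives reuse the same peaks and these intervals are wide, so staying within them is a weak check. A fold over 10 lowered the share of all members to 55.8% and of DDX genes to 56.8%, and a −log10 q over 10 lowered them to 57.7% and 59.5%. The DHX share fell from 73.3% to 53.3% under each of these thresholds, within its wider interval of 48.0% to 89.1%. Both thresholds remove genes with weak peaks by construction. Across the 10 alternatives the DHX share ranged from 53.3% to 73.3%. Leaving out peaks nearest to another gene dropped DDX20, DDX25, DDX49, DDX52 and DHX38, and 34 genes (65.4%) kept a peak. Over all protein-coding genes a fold over 10 was reached by 45.2%. The shares of all protein-coding genes without peaks nearest to another gene, or at a −log10 q over 10, were not computed. The 62.1% at 1 kb is therefore not the background for those member shares. At pileups of 10 to 20 fragments the counting intervals of the 9 weakest members overlapped.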

Other observations

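Among the 47 members with a known direction, 15 had an end of another protein-coding gene within 1 kb of their 5′ end, and 12 of these (80.0%, 95% Wilson interval 54.8% to 93.0%) had a peak, against 22 of 32 (68.8%, 51.4% to 82.0%) without such a neighbour. Over all protein-coding genes the shares were 85.0% and 58.9%. The median fold at the members with and without a neighbour was 13.9 and 17.6, and over all genes 17.99 and 17.5. Promoter windows of members with a peak had a median of 30 CpG dinucleotides in the window richest in them, and those of members without had 21. Over all protein-coding genes these medians were 28 and 9.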
